A study of Rattus norvegicus with 7 samples.

Results

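The striated muscle miRNAs miR-1, miR-133a, miR-133b, miR-206, miR-208 and miR-499 were followed in rat liver after dietary potassium perfluorooctanesulfonate (PFOS), a persistent fluorinated surfactant. They were chosen by name, with both arms of each precursor, which gave 12 of the 677 rat miRNAs on the array (a star marks the arm catalogued as the minor one). The PFOS group was adult male Sprague-Dawley rats given 50 mg PFOS per kg of diet for 28 days (4 arrays), and the Control group was adult males of the same strain on control diet (3 arrays). Each array held total RNA of the liver of 1 rat, labelled with Cy3. RNA of 4 rats per group had been hybridised, and the submitters removed 1 control array that did not pass their quality checks. The comparison asked which liver miRNAs differ after PFOS in a study of thyroid hormone balance.

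These miRNAs are made mainly in skeletal muscle and heart, where they act in muscle differentiation and contraction. miR-1 and miR-133a are transcribed together, as are miR-206 and miR-133b, and miR-208 and miR-499 lie within genes of myosin heavy chains. In mice, hypothyroidism has been reported to raise miR-1, miR-133a, miR-133b and miR-206 in liver.

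The mature sequences explain how the 12 members group, because a miRNA pairs with its targets mainly through its seed. RefSeq (build GRCr8) listed 11 of the 12, and miR-206* was not among them. The main arms are printed 5′ to 3′ with the seed, bases 2 to 8, in capitals.
miR-1: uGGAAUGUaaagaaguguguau
miR-206: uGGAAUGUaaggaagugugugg
miR-133a: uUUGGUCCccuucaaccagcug
miR-133b: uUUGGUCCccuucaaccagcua
miR-208: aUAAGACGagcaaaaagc
miR-499: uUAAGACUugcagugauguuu

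The seed is the same in miR-1 and miR-206, which are alike at 19 of 22 positions. Counted from 1 at the 5′ end of miR-1, they differ by A11G, A21G and U22G. The seed is also the same in miR-133a and miR-133b, which differ by G22A alone. Cross-hybridisation between probes of such near relatives was not tested. The seeds of miR-208 and miR-499 are alike at 6 of 7 bases, with G8U as the difference. In GRCr8, Mir206 lies at chr9:30590697-30590780 and Mir133b at chr9:30594582-30594665, both on the plus strand, 3801 bases apart and within a long non-coding RNA gene. Mir133a1 at chr18:2157872-2157958 and Mir1 at chr18:2160327-2160413, on the minus strand, are 2368 bases apart and lie within the span of Mib1, which encodes a ubiquitin ligase. Mir208a lies at chr15:32395552-32395634 on the minus strand, within Myh6, and Mir499a at chr3:164570612-164570676 on the plus strand, within Myh7b.

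Array quality bears on such dim miRNAs. To count as detected on an array, a miRNA needed 1 or more probes with over 50% of kept spots well above background. By this rule 161 to 200 miRNAs were detected on the PFOS arrays against 131 to 174 on the Control arrays. The median signal of the 123 miRNAs detected on all arrays was 226 to 326 scanner units on PFOS arrays and 132.9 to 176 on Control arrays. Scaling to a common 75th percentile multiplied PFOS signals by 0.616 to 1.11 and Control signals by 1.203 to 1.49. The number of arrays limits the precision. The liver label was borne out by miR-122, the dominant hepatocyte miRNA, by its minor arm miR-122*, and by miR-192 and miR-194, all 4 detected on all 7 arrays, with miR-122 at 41918 to 84604 units before scaling.

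Against that background, the muscle miRNAs were almost all at or below the detection limit in both groups. Of the 12 members, 10 were detected on no array, as were 458 of all 677 miRNAs. Detection on at least 1 array was thus seen for 16.7% of members and 32.3% of all miRNAs. No spot of 9 members was well above background on any array, a count not made over all miRNAs. Of the 84 pairs of a member and an array, 7 were detected, which is 8.33%, against 24.8% over all 677 miRNAs. Only miR-206, detected on 5 arrays, and miR-1*, detected on 2, contributed to them. The unscaled signals of the 10 undetected members, each summed over 2 probes, ran from -13.7 to 15.6 units. The negative control spots averaged 2.98 to 4.38 units per spot on PFOS arrays and 4.07 to 4.44 on Control arrays. These control values are per spot and not summed over probes, so the scales are not the same. Values below 0 arise because local background had been subtracted. In bulk liver, fewer cells that make a miRNA and less of it per cell cannot be told apart.

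**Figure D1:**
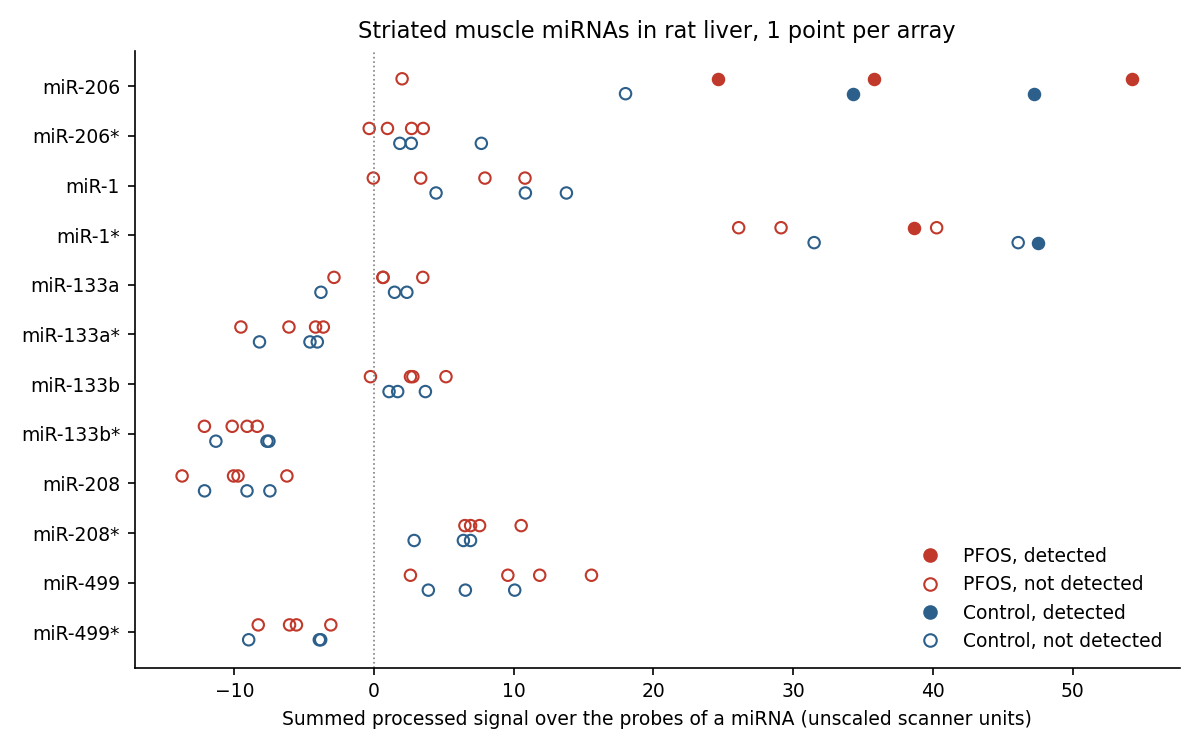
Summed processed signal over the probes of each of the 12 members (horizontal axis, unscaled scanner units), 1 point per array, PFOS above Control in each row. Filled points are arrays on which the member was detected, and only miR-206 (5 arrays) and miR-1* (2 arrays) have any.

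miR-206, a miRNA of skeletal muscle, was the member detected on the most arrays, and its values in the diet groups overlapped. Its unscaled signal, summed over 2 probes of 10 spots each, was 54.3, 35.8, 24.6 and 2.01 units on PFOS arrays 1 to 4. It was 47.2, 34.3 and 18.002 units on Control arrays 1 to 3. The PFOS values enclosed all 3 Control values, and PFOS array 4 was the lowest of all. The group means were 29.2 ± 21.8 units in PFOS livers (SD, n = 4) and 33.2 ± 14.7 units in Control livers (SD, n = 3). The difference was -4.01 units, and the two-sided exact permutation p was 0.8286, where the 35 possible splits give at least 0.0286.

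The spots gave the same picture, array by array. On PFOS array 1 all 18 kept spots for miR-206 were well above background, on PFOS array 2 it was 19 of 20, on PFOS array 3 it was 7 of 19 and on PFOS array 4 it was 0 of 19. On Control arrays 1 to 3 the counts were 20 of 20, 14 of 18 and 0 of 19. Both probes ordered the arrays alike. The first probe averaged 24.4 ± 3.14 units over its spots on PFOS array 1 and 0.248 ± 1.99 on PFOS array 4 (SD over spots, which are not replicates). miR-206 was therefore detected on 3 of 4 PFOS arrays and 2 of 3 Control arrays.

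**Figure D2:**
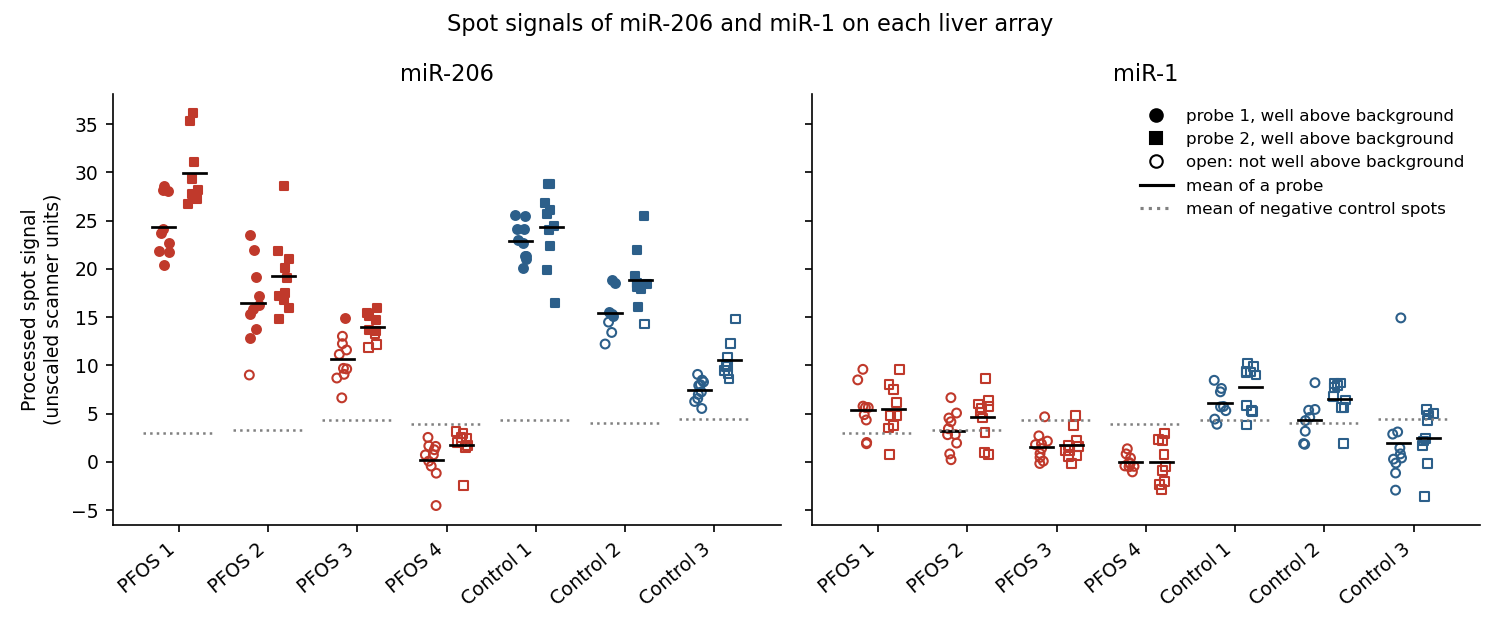
Processed signal of every kept spot of miR-206 (left) and miR-1 (right) on the 4 PFOS and 3 Control arrays (vertical axis, unscaled scanner units), with circles and squares for the 2 probes of each miRNA, filled where a spot was well above background. Short lines are probe means and dotted lines the mean of the negative control spots; miR-206 runs from a summed 54.3 units on PFOS array 1 to 2.01 on PFOS array 4.

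After scaling and cyclic loess, miR-206 was the single member that could be tested, among 175 tested miRNAs. Its normalised signals were 59.4, 26.0, 14.1 and 12.02 on PFOS arrays 1 to 4. They were 59.1, 56.1 and 23.6 on Control arrays 1 to 3. The groups overlapped, and PFOS array 4 sat at the floor of 12.1 that was set before loess, so its value is an upper limit. The means were 22.6 on PFOS arrays and 42.8 on Control arrays, which is a log2 difference of -0.92 (SE 0.63, 95% interval -2.43 to 0.59). limma gave an adjusted p of 0.482, and the unadjusted p was 0.190. The exact two-sided permutation p on these normalised values was 0.314. Over all tested miRNAs 0% passed at an adjusted p under 0.05, 18.9% had an unadjusted p under 0.05 (10.3% as lower in PFOS), and 20.6% had groups that did not overlap.

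The size of that difference varied with the arrays, the floor and the background treatment. Without PFOS array 1 it was -1.34 (SE 0.49) and without Control array 3 it was -1.28 (SE 0.68). Without PFOS array 3 it was -0.55 (SE 0.67) and without PFOS array 4 it was -0.67 (SE 0.60). With the floor at the 5th percentile of detected signals it was -0.61 (SE 0.50). In the deposited value table it was -0.20 (SE 0.15). With normexp background correction, which here added an offset of 50 to each spot signal, it was -0.23 (SE 0.14). Such an offset narrows log2 differences of dim signals. Over the arrays miR-206 spanned 5.53 to 6.15 log2 units in the deposited value table, against 3.59 to 5.89 after normalization here. The deposited and normexp sizes are therefore not on the same scale as -0.92. Slide position moved with the signal as well. The 3 arrays of the first slide row had 35.8 to 54.3 unscaled units and the 4 of the second row 2.01 to 34.3, without overlap. Within the first row the normalised log2 difference was -0.59 (2 PFOS arrays, 1 Control array), and within the second it was -1.49 (2 arrays of each group). With slide row as a block it was -1.13 (SE 0.45, limma adjusted p = 0.279). The part of slide position in the result was not tested.

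miR-1, the heart and skeletal muscle miRNA that shares the seed of miR-206, stayed below the detection limit. Its summed signal was 10.8, 7.94, 3.34 and -0.05 units on PFOS arrays 1 to 4. It was 13.8, 10.8 and 4.44 units on Control arrays 1 to 3. No kept spot was well above background, although 37 of 76 kept spots on PFOS arrays and 37 of 54 on Control arrays passed the weaker flag for a positive and significant signal. The software called miR-1 detected on Control array 1 alone.

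The array-by-array levels of miR-1 followed those of miR-206. Across the 7 arrays Pearson's r was 0.91 (exact permutation p = 0.00516, adjusted 0.0567 over the 11 other members) and Spearman's rho 0.79 (exact permutation p = 0.0480, adjusted 0.264). Without PFOS arrays 1 and 4, the 2 arrays farthest from the median of miR-206, r was 0.92. Neither adjusted value passed, and both signals come from the same arrays and labelling. Each slide row holds too few arrays for a correlation of its own. miR-1 had 7.94 to 13.8 units in the first row and -0.05 to 10.8 in the second. The strongest relation in the other direction was that of miR-206*, at r = -0.67 (exact permutation p = 0.0960, adjusted 0.528) and rho = -0.93 (exact permutation p = 0.00675, adjusted 0.0742), with signals of -0.35 to 7.68 units that were at background on every array. The other arm of the miR-206 precursor was thus not detected in any liver.

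miR-1* is the one other member that met the detection rule on any array. It has 4 probes of 5 spots, and its summed signal was 26.1, 40.3, 29.1 and 38.7 units on PFOS arrays 1 to 4. On Control arrays 1 to 3 it was 47.5, 31.5 and 46.1 units. The unscaled groups overlapped, with a difference of -8.16 units (exact two-sided permutation p = 0.229). It was detected on PFOS array 4 and Control array 1, with 11 of 80 kept spots well above background on PFOS arrays and 12 of 60 on Control arrays. After normalization the groups no longer overlapped, with means of 26.2 in PFOS and 55.9 in Control livers. Groups that do not overlap were seen for 6.65% of all 677 miRNAs after normalization and for 15.4% before it. miR-1* did not meet the detection rule for the test. With no detection filter its log2 difference was -1.10 (SE 0.20, limma adjusted p = 0.0632), where 0.148% of miRNAs passed and 5.91% had an unadjusted p under 0.05. In that fit the median over all 677 miRNAs was -0.17. Members at the floor on every array, such as miR-133a, also had -0.17. The scale factors were higher for every Control array than for any PFOS array, and their part in the difference of miR-1* was not tested.

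The miR-133 pair, which acts in muscle cell proliferation and excitability, was at background. miR-133a had -2.87 to 3.49 units on PFOS arrays and -3.80 to 2.35 on Control arrays, and miR-133b had -0.26 to 5.15 on PFOS arrays and 1.07 to 3.67 on Control arrays. Neither had a spot well above background in any of 138 and 137 kept spots. The weaker flag for a positive and significant signal was passed by 24 of 77 kept spots of miR-133b on PFOS arrays and 11 of 60 on Control arrays. miR-133b was thus not detected on the arrays where its cluster partner miR-206 was brightest. Their star arms were below 0 on all 7 arrays, down to -9.53 units for miR-133a* and -12.1 for miR-133b*.

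The cardiac members were likewise not detected. miR-208, encoded in the alpha myosin heavy chain gene, was below 0 on all 7 arrays, at -13.7 to -6.24 units on PFOS arrays and -12.1 to -7.46 on Control arrays. miR-208* had 6.50 to 10.5 units on PFOS arrays and 2.87 to 6.90 on Control arrays, with 0 of 137 kept spots well above background. miR-499 had 2.60, 15.6, 9.58 and 11.9 units on PFOS arrays 1 to 4, against 10.1, 3.88 and 6.54 units on Control arrays 1 to 3. Its 8 spots well above background, 4 each on PFOS arrays 2 and 4, all came from 1 of its 2 probes, and the software called it detected on those 2 arrays. miR-499* was below 0 on every array. For each of the 12 members the unscaled groups overlapped, and the smallest exact two-sided permutation p was 0.114, for miR-208*. For members below the detection limit in both groups, a difference within that limit was not detectable on these arrays. The lowest signals of detected miRNAs were 9.22 to 14.9 units on PFOS arrays and 12.3 to 26.2 on Control arrays.

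The pattern of miR-206 over the arrays was then set against that of every other tested miRNA. The 3 most alike by root mean square difference of centred log2 signals were miR-466b (0.271), miR-466d (0.301) and miR-3588 (0.379), where the median over all tested miRNAs was 0.921. miR-466b had 149.5, 115, 85.2 and 34.1 unscaled units on PFOS arrays 1 to 4. On Control arrays 1 to 3 it had 135, 106 and 71.5 units. The order of the 7 arrays, highest to lowest, was the same as for miR-206, with PFOS array 4 lowest. An identical order was found for 3 of the other 218 detected miRNAs, namely miR-466b, miR-32* and miR-672, which is 1.38% of them. In that order every array of the first slide row stands above every array of the second.

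**Figure D3:**
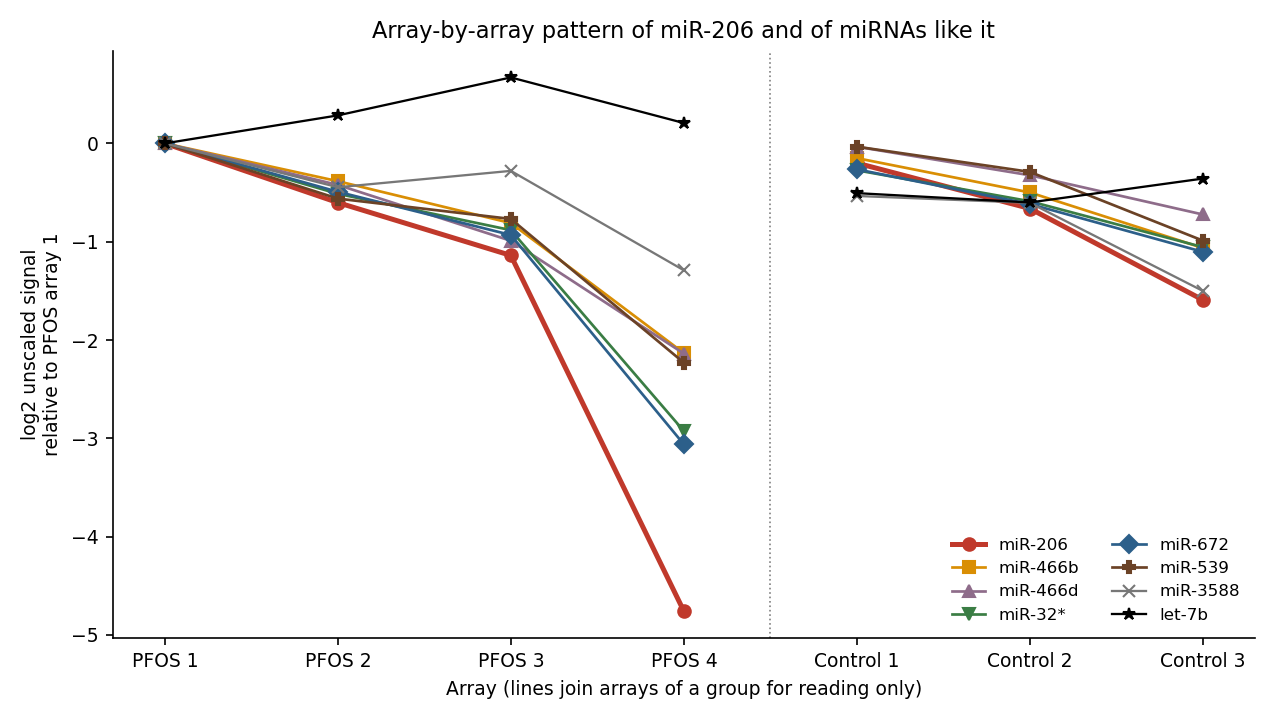
Unscaled log2 signal of miR-206 and 7 other miRNAs on each array, relative to PFOS array 1 (vertical axis), with the 4 PFOS arrays left of the 3 Control arrays. All but let-7b are lowest on PFOS array 4 or, for miR-3588, on Control array 3, and miR-206 is the lowest line on PFOS array 4, at 2.01 units, where it was not detected.

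The sequences of miR-206, miR-466b, miR-466d, miR-32* and miR-672 share a run of alternating G and U. The choice by name did not use this feature, and miR-3588 lacks it. The run, of at least 6 bases (GUGUGU or UGUGUG, searched on the mature RNA only, both counted as one motif), was defined after the values had been seen. It is held by 14 of 693 mature rat miRNA names in RefSeq, 2.02%, and by 2 members, miR-206 and miR-1. The run is in capitals. Of 174 tested miRNAs ranked by likeness to miR-206, miR-466b was 1st, miR-466d 2nd, miR-32* 5th and miR-672 6th. miR-539 and let-7b are printed as further carriers. miR-3588, which ranked 3rd and has no run, is shown for contrast.
miR-206: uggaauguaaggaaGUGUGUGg
miR-1: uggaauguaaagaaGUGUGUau
miR-466b: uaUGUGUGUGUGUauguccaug
miR-466d: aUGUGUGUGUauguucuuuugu
miR-32*: gcaauuuaGUGUGUGUGauauu
miR-672: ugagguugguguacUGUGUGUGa
miR-539: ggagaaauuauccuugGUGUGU
let-7b: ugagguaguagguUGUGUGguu
miR-3588: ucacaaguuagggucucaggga

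Of the 14 carriers, all on the array, 6 were tested, and none passed the test. The 5 most negative log2 differences of all 175 tested miRNAs belonged to carriers, with miR-206 the fifth. As the run was defined with these values known, that ranking is a description and no test of the run. The other 4 differences were as follows. The log2 difference was -1.30 (SE 0.57) for miR-466d, -1.21 (SE 0.78) for miR-672, -1.17 (SE 0.75) for miR-32* and -1.01 (SE 0.59) for miR-466b. None of the 5 passed in limma (adjusted p of 0.289 to 0.482). Without PFOS array 4 the 5 differences ran from -0.98 for miR-466d to -0.59 for miR-32*. That placed miR-466d first, miR-206 6th, miR-466b 7th, miR-672 8th and miR-32* 10th from the most negative.

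The groups of each overlapped before scaling. miR-32* had 25.7 to 195 units on PFOS arrays and 93.9 to 161 on Control arrays. miR-672 had 18.3 to 152 units on PFOS arrays and 71.0 to 127 on Control arrays. PFOS array 4 was the lowest for 6 of the 7 detected carriers. The sixth was miR-539, with 15.6 to 73.2 units on PFOS arrays and 36.9 to 71.5 on Control arrays. The share over all 219 detected miRNAs, these carriers included, was 10.5%. Because the run was defined after these values had been seen, this count describes the carriers and does not test the run.

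The exception was let-7b, an abundant liver miRNA with a 6-base run. It had 1393 to 2217 unscaled units on PFOS arrays and 918 to 1087 on Control arrays, a log2 difference of -0.00 (SE 0.09), and its pattern ranked 65th of 174 in likeness to miR-206. The other 7 carriers were detected on no array, as were 458 of all 677 miRNAs. Whether the run or slide position has a part in the shared pattern was not tested.

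**Figure D4:**
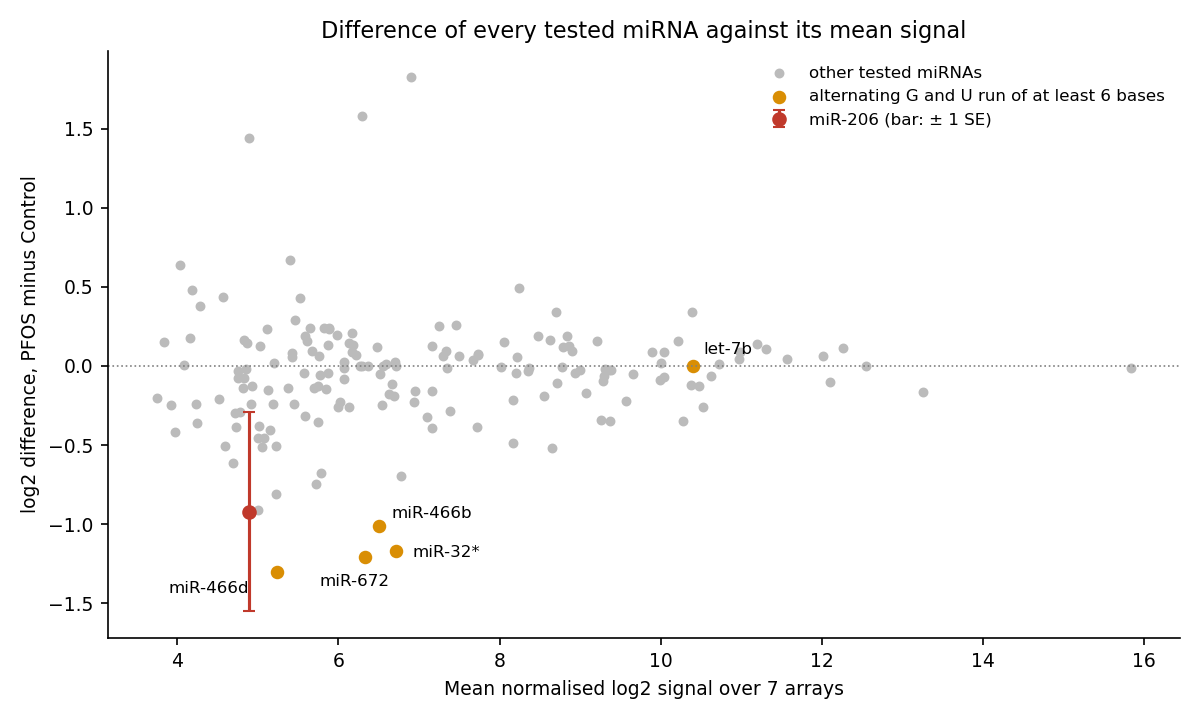
log2 difference, PFOS minus Control (vertical axis), against mean normalised log2 signal over the 7 arrays for the 175 tested miRNAs. miR-206 is red with a bar of 1 SE to each side (-0.92, SE 0.63), and the other 5 tested carriers of an alternating G and U run are orange; 4 of them lie below every other point and let-7b lies at 0.

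Other muscle-linked miRNAs were mixed in detection and gave no called difference. Of 18 on the array, 7 were tested, against 175 of all 677 miRNAs. At a limma adjusted p under 0.05, 0 were higher and 0 lower. All 7 log2 differences were negative, as were 101 of the 175 tested miRNAs. Their median was -0.04, against -0.03 over all tested miRNAs. The brightest 4 were miR-143, miR-31, miR-322 and miR-31*. miR-143, a smooth muscle miRNA of vessel walls, had mean normalised signals of 651 on PFOS arrays and 663 on Control arrays, a log2 difference of -0.03 (SE 0.15, limma adjusted p = 0.9995). Its cluster partner miR-145 was detected on 3 of the PFOS arrays but on 0 Control arrays, although its normalised mean was 14.03 in PFOS and 16.7 in Control livers. Both arms of miR-208b, the slow myosin relative of miR-208, were below 0 on every array.

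Erythroid, endothelial and leukocyte markers varied less between arrays of a group than miR-206 did, and were brighter. The erythroid miR-451 had 371 to 1444 unscaled units and a log2 difference of -0.02 (SE 0.41), the endothelial miR-126 gave 0.01 (SE 0.09) and the leukocyte miR-142-3p gave -0.03 (SE 0.11). Of the other leukocyte markers, miR-223 gave -0.23 (SE 0.09), miR-142-5p gave 0.15 (SE 0.17) and miR-150 gave 0.10 (SE 0.24). The erythroid miR-144 gave -0.19 (SE 0.33) and the endothelial miR-126* gave -0.00 (SE 0.23). None of these markers passed in limma. The residual SD of miR-206 between arrays of a group, 0.937 on the log2 scale, ranked 13th highest of 175, where the median was 0.195. It was 0.600 for miR-451, 0.110 for miR-126 and 0.148 for miR-142-3p. The vessel wall miR-145 was dimmer than miR-206, at normalised means of 14.03 in PFOS and 16.7 in Control livers, near the floor of 12.1. Its residual SD was 0.110. The parts of dim signal, slide position and rat in the spread of miR-206 were not tested.

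Of the miRNAs linked to thyroid hormone outside muscle, miR-21 had mean normalised signals of 9304 on PFOS arrays and 10441 on Control arrays, a log2 difference of -0.17 (SE 0.11, limma adjusted p = 0.475). miR-181d was detected on no array. The miRNA genes that overlap the members on the opposite strand, Mir3571 at Mir1, Mir3582 at Mir133a1 and Mir3546 at Mir208a, had no array entry detected on any array.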

How the data were processed

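Rat liver RNA was measured on 7 Agilent miRNA arrays labelled with Cy3 alone, all of 1 slide and 1 scan, per the file headers. The deposited spot intensity was made with Feature Extraction 10.7.3.1 and is background-subtracted but not normalized between arrays. The deposited log2 value table had been normalized by the authors with cyclic lowess, per the labels, with settings not given in the sources used here.

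Each sample's title gave its group, and replicate numbers serve only as names. Spots with outlier flags were left out, spots averaged per probe and probes summed per miRNA (unscaled signal). Arrays were scaled to the 75th percentile over 123 miRNAs detected on all arrays, floored at the 1st percentile of detected values (12.1), log2 transformed and normalized by weighted cyclic loess (span 0.7, 3 iterations). miRNAs detected on 3 Control or at least 3 PFOS arrays were tested with limma 3.58.1 in R 4.3.3 and Benjamini-Hochberg adjustment. The steps were tested on simulated data. Plots used matplotlib 3.10.9. Single miRNAs were compared by exact permutation.

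All members were named, with the 3 miRNAs most like each tested member, up to 4 of each list, and miR-21 and miR-181d. The carriers of the G and U run, let-7b, miR-32*, miR-672, miR-539 and the rest, were named after their values were seen. Members and lists were chosen with earlier results of these data known.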

Additional observations from a re-analysis of the deposited data

How the results depend on the processing

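The log2 difference of miR-206 was negative under all 21 alternatives that gave a value, from -1.34 to -0.20, and passed 0.05 in none (adjusted p, or for the permutation test p, of 0.111 to 0.824). Leaving out each array in turn gave -1.34 to -0.55, and restriction to miRNAs detected on all arrays gave no value. The smallest sizes were -0.20 in the deposited value table and -0.23 with normexp at an offset of 50, neither on the scale of the main fit. Each probe alone gave -0.89 and -0.94.

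The count past the threshold, 0, stayed 0 under 12 of 19 alternatives, all 7 that left out an array among them. It was 3 when the 75th percentile was taken over every miRNA without loess, 8 under labelling spike-in scaling, 6 with normexp, 1 with the software's total gene signal, 9 in the deposited value table, 1 with no detection filter and 4 with slide row as a block. Unadjusted p was under 0.05 for 33 miRNAs, and for 13 to 69 under the alternatives. The median of all tested miRNAs was -0.03, but 0.25 with the percentile over every miRNA and -0.43 with the labelling spike-in. With no detection filter it was -0.17. miR-206 passed in none of these. The cause of the changed counts was not tested.

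Detected pairs of a member and an array, of 84, numbered 12 by the software's own flag and 3 when over 90% of spots were required, against 7. The software flag called 199 to 242 of all 677 miRNAs on each PFOS array and 169 to 212 on each Control array. For the 90% rule the share over all miRNAs was not taken. No paired analysis was possible because each array came from a different rat and the labels link no PFOS rat to a Control rat. For most members, differences below the detection limit could not be measured.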
